A study of Rattus norvegicus with 54 samples.

Results

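The transcripts of 9 genes of the transforming growth factor beta (TGF-β) system were followed in the rat heart after myocardial infarction (MI). They were the ligands Tgfb1, Tgfb2 and Tgfb3, the receptors Tgfbr1, Tgfbr2 and Tgfbr3, the latent TGF-β binding proteins Ltbp1 and Ltbp2, and the inhibitory Smad gene Smad7. The genes were chosen by symbol and were found once each among the 40319 genes listed for every library. All 9 passed the filter on low counts in all 20 comparisons.

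TGF-β ligands are secreted as latent complexes, in which latent TGF-β binding proteins tether the ligand to the extracellular matrix until it is released. The active ligand is bound by the type II receptor, encoded by Tgfbr2, which recruits and phosphorylates the type I receptor, encoded by Tgfbr1, and the signal passes to Smad proteins. In the infarcted heart this pathway is best known for driving fibroblasts to form scar matrix.

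The left ventricles came from 18 female athymic F344/NJcl-rnu/rnu rats, 8 weeks of age. They were sham-operated (Sham), had the left anterior descending coronary artery tied off permanently (MI), or had the same ligation and a bi-level sheet of human endothelial progenitor cells and smooth muscle cells, the latter derived from mesenchymal stem cells, laid on the epicardium of the ischemic area (MI+Cell Sheet). One week after surgery the infarct, border and remote zones of each heart were sampled, giving 9 groups of 6 libraries of polyadenylated RNA. The rats lack a thymus but were not free of T cell transcripts. All hosts were athymic and female, reads were aligned to the rat genome alone, and human transcripts of the sheet were not separated here. Replicates are labelled technical but described by the study as separate animals, and if the label is right the p-values measure technical spread.

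Libraries held 12699204 to 23397754 counts on genes, and their levels are given as CPM (the count of a gene scaled to a library of fixed size) after TMM normalisation, a scaling for composition. Cardiomyocyte markers (summed CPM of 5 genes) were found in every library, from 81.2 in the border zone of MI+Cell Sheet replicate 1 to 36790 in a Sham remote zone. Sham replicate 5 stood apart in all 3 zones. Its 5 T cell markers summed to 305 to 435 CPM against medians of 6.33 to 8.15 in the Sham zones. Its macrophage markers summed to 578 to 625 CPM against medians of 118 to 160 CPM. Its macrophage, myofibroblast and proliferation sums were the highest of the Sham group in each zone. Cardiomyocyte, endothelial and mural sums were the lowest of Sham in that animal. Its cardiomyocyte sums were 9691 to 17964 CPM, against Sham medians of 27398 to 35678 CPM. The remote zone of MI+Cell Sheet replicate 1 had a myofibroblast marker sum of 3204 CPM against a group median of 166. The infarct zones of MI+Cell Sheet replicates 2 and 6 held skeletal muscle markers at 111 and 223 CPM, above a group median of 4.19. The infarct zones of MI replicate 1 and MI+Cell Sheet replicate 6 had the highest cardiomyocyte sums of their groups. These were 17370 and 16675 CPM, against group medians of 5624 and 1388 CPM. MI replicate 1 also had the lowest myofibroblast sum of its infarct group, at 915 CPM against a median of 2345 CPM. In these bulk libraries, fewer cells of a type and less RNA per cell cannot be told apart. Values without Sham replicate 5 or MI+Cell Sheet replicate 1 are given beside the results whose call they changed, and beside some that were called either way.

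All 9 genes were detected in all 54 libraries. Ltbp2 had the widest range, from 3.85 to 1043 CPM, a 271-fold span. The other 8 genes spanned between 3.13-fold for Tgfbr2, at 211 to 662 CPM, and 6.82-fold for Tgfbr1, at 42.1 to 287 CPM. The 9 groups of tissue and treatment took up 73.8% of the variance of log2 CPM of Tgfbr2 and 72.0% of that of Ltbp2, but only 19.0% of that of Smad7. When the group means of each gene were put in order, 4 of the 72 gaps between neighbouring groups were larger than the larger SD of the pair, all for Ltbp1, Tgfbr1 or Tgfbr2. The order below is therefore given only where a test was made.

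**Figure D1:**
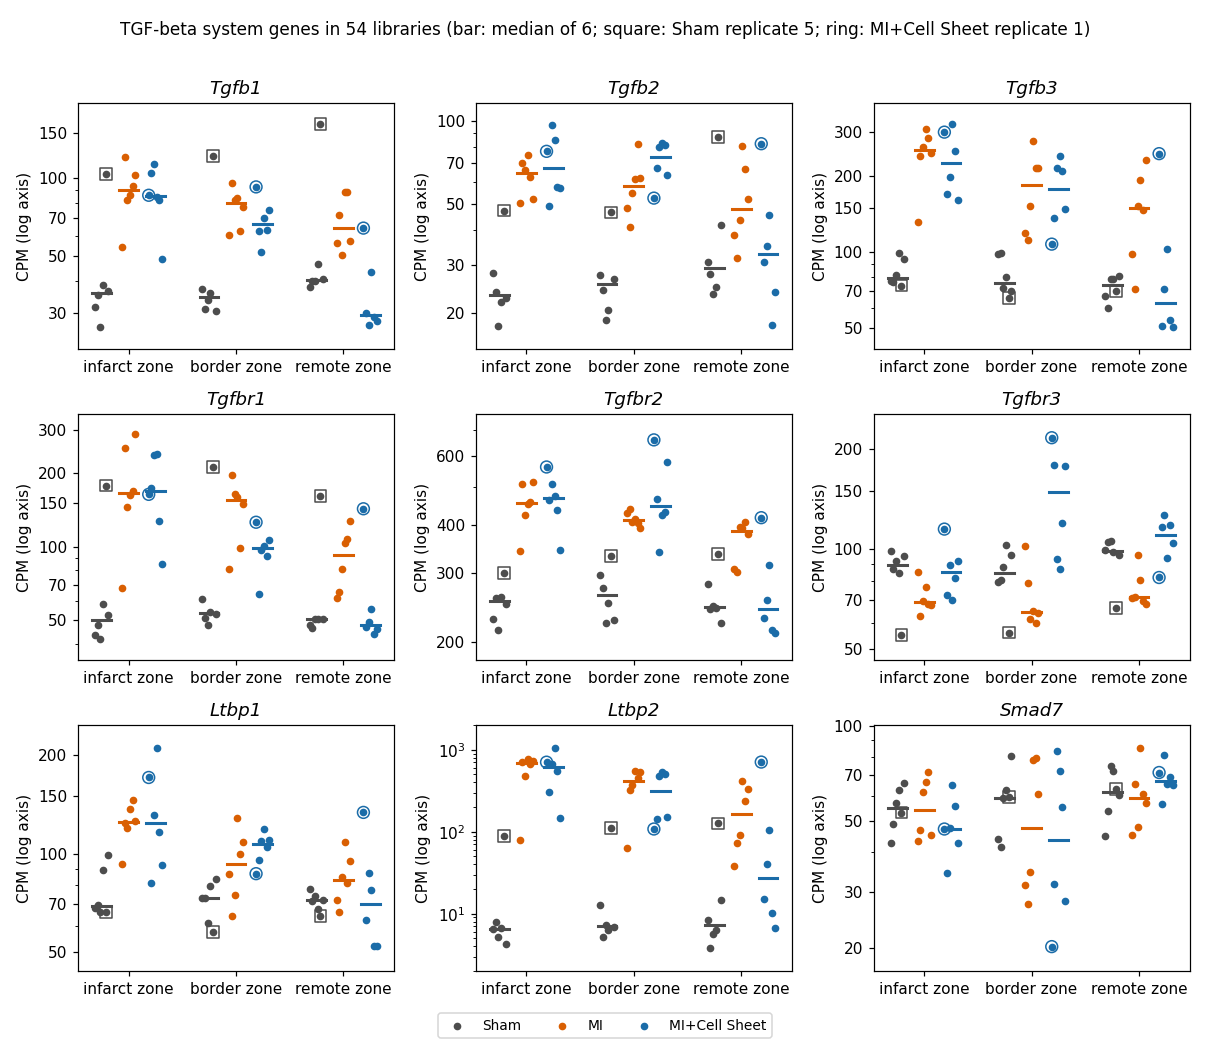
Level of each of the 9 genes in the 54 libraries, in CPM on a log axis, by zone and treatment; points are libraries, bars are medians of 6, squares mark Sham replicate 5 and rings MI+Cell Sheet replicate 1. Ltbp2 lay at 3.85 to 14.9 CPM in the Sham libraries other than replicate 5 and reached 1043 CPM in a treated infarct zone, whereas the Smad7 groups overlapped throughout.

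MI was compared with Sham in each zone to ask what the infarct did to these genes. In the infarct zone 7 of the 9 genes rose, in a comparison where 49.9% of the 15758 genes tested were called, 22.7% higher and 27.2% lower. All 3 ligands, Tgfbr1, Tgfbr2, Ltbp1 and Ltbp2 were higher in MI, and Tgfbr3 and Smad7 did not pass the test. In the border zone 4 of 9 rose (Tgfb2, Tgfb3, Tgfbr2 and Ltbp2), with 41.7% of all genes called (18.4% higher, 23.2% lower), and in the remote zone 3 of 9 rose (Tgfb3, Tgfbr2 and Ltbp2), with 25.8% called (11.7% higher, 14.2% lower). The median log2 fold change over the 9 genes in the infarct zone was 0.98, beside -0.02 over all genes tested. Scaling by library size alone raised the median over all genes by 0.26 in this comparison and the share of calls that were higher from 45.5% to 67.1%. None of the called genes changed direction under that scaling.

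Cell type markers, 5 genes for each type, moved in the same comparison. From Sham to MI infarct zones the median summed level went from 27398 to 5624 CPM for cardiomyocytes, from 48.1 to 2345 CPM for myofibroblasts, from 1474 to 3436 CPM for fibroblasts and from 154 to 661 CPM for macrophages. In remote zones it went from 35678 to 17294 CPM, from 51.3 to 1106 CPM, from 1187 to 2436 CPM and from 118 to 390.0 CPM for the same types. The part of these shifts in the levels of the 9 genes was not tested.

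Tgfb3, a ligand with a part in heart and palate development, showed the clearest separation of the 3. Its infarct zone level ran from 73.7 through a median of 79.1 to 99.4 CPM in Sham and from 132 through 254 to 307 CPM in MI. The groups did not overlap, as was the case for 14.1% of all genes tested here. In border zones 11.5% and in remote zones 8.24% of all genes were free of overlap, and in the latter none of the 9 genes was among them. The log2 fold change was 1.55 (SE 0.178, adjusted p = 9.99e-05, edgeR quasi-likelihood test), or 1.16 (SE 0.222, adjusted p = 0.00278) for border zones and 1.04 (SE 0.231, adjusted p = 0.00679) for remote zones. Only Tgfb3 among the ligands was called in all 3 zones, and it kept the call when any 1 animal was left out.

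Tgfb2, the ligand best known from the embryonic heart and its valves, lay at 17.9, 23.3 and 47.2 CPM (lowest, median and highest) in Sham infarct zones and at 50.3, 64.4 and 75.3 CPM in MI infarct zones. The groups did not overlap, and the log2 fold change was 1.21 (SE 0.217, adjusted p = 0.00133). Its border zone value was 1.09 (SE 0.224, adjusted p = 0.00402), with 41.3 to 82.6 CPM in MI and 19.0 to 46.4 CPM in Sham. In the remote zone it was 0.40 (SE 0.338, adjusted p = 0.403), where Sham replicate 5 alone lay at 87.0 CPM and the other Sham animals at 23.6 to 42.0 CPM. Without that animal the remote log2 fold change of Tgfb2 was 0.82 and passed the test (adjusted p = 0.00792).

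Tgfb1, the ligand made by platelets, macrophages and many other cells, was the one most affected by Sham replicate 5. In the infarct zone it lay at 26.5, 35.9 and 104 CPM in Sham and at 54, 90.1 and 121 CPM in MI, and the groups overlapped through that animal alone. The log2 fold change was 0.98 (SE 0.326, adjusted p = 0.0254). It was 1.42 (adjusted p = 7.02e-05) without Sham replicate 5, whereas it missed the threshold narrowly (adjusted p from 0.0531 to 0.0565) when MI replicate 2 or any of the other 5 Sham animals was left out. In the border and remote zones Tgfb1 did not pass the test, at 0.67 (SE 0.338, adjusted p = 0.129) and 0.15 (SE 0.365, adjusted p = 0.788). Without Sham replicate 5 both passed, at 1.20 (adjusted p = 3.43e-05) and 0.75 (adjusted p = 0.000866). The T cell and macrophage marker sums of that animal are given above, and their part in its Tgfb1 level was not tested.

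Of the receptors, Tgfbr2 rose in all 3 zones. This type II receptor lay at 214, 255 and 300 CPM in Sham and at 343, 456 and 514 CPM in MI infarct zones, with no overlap. Its log2 fold change was 0.83 (SE 0.127, adjusted p = 0.000535) in the infarct, 0.63 (SE 0.112, adjusted p = 0.002) in the border and 0.47 (SE 0.12, adjusted p = 0.0139) in the remote zone. Border zones of MI held a narrow band of 392 to 441 CPM. Sham border zones all lay below it, at 224 to 332 CPM.

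Tgfbr1, the type I receptor kinase, rose in the infarct zone, from 42.1, 50.1 and 178 CPM in Sham to 67.5, 165 and 287 CPM in MI. The groups overlapped through Sham replicate 5 alone, as the other Sham animals did not exceed 58.0 CPM. MI replicates 1, 3, 4 and 5, at 67.5, 146, 162 and 169 CPM, lay below Sham replicate 5. The log2 fold change was 1.35 (SE 0.425, adjusted p = 0.0196). Without Sham replicate 5 it was 1.89 (adjusted p = 0.000254), and Tgfbr1 then also passed the test in the border zone (1.40, adjusted p = 0.000191) and the remote zone (0.89, adjusted p = 0.000523), where with all animals it did not (0.82, adjusted p = 0.107, and 0.41, adjusted p = 0.374).

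Tgfbr3 encodes betaglycan, a co-receptor without kinase activity that presents ligand, Tgfb2 in particular, to the type II receptor. Its log2 fold change in MI against Sham was below 0 in each zone, at -0.25 (SE 0.131, adjusted p = 0.129) in the infarct, -0.22 (SE 0.166, adjusted p = 0.297) in the border and -0.32 (SE 0.118, adjusted p = 0.061) in the remote zone. None passed the test. Sham replicate 5 had the lowest Tgfbr3 of its group in every zone, at 55.0 CPM in the infarct zone against 84.7 to 98.5 CPM in the other 5 animals. Without it the infarct value was -0.35 (adjusted p = 0.00474) and the remote value -0.40 (adjusted p = 0.00223), both past the threshold. These values depend on the scaling, since by library size alone the infarct value over all animals was 0.02 (adjusted p = 0.869).

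Ltbp2, a matrix protein of the latent TGF-β binding protein family that itself does not bind latent TGF-β, showed the largest difference of the 9 genes. Infarct zone levels lay at 4.33, 6.54 and 88.3 CPM in Sham and at 78.7, 691 and 771 CPM in MI. The lowest MI animal, replicate 1, and the highest Sham animal, replicate 5, were the only ones between 7.93 and 478 CPM. The log2 fold change was 4.83 (SE 0.939, adjusted p = 0.00206), and 6.55 without Sham replicate 5. Its border zone value was 3.95 (SE 0.894, adjusted p = 0.00611), and 5.63 without that animal. In the remote zone it was 2.80 (SE 0.926, adjusted p = 0.0407), a call kept in only 3 of the 12 fits that left out 1 animal, among them the one without Sham replicate 5, at 4.66 (adjusted p = 5.69e-05). The other fits without 1 animal gave 2.45 to 2.95 where the call was lost (adjusted p up to 0.0877).

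Ltbp1, which does bind latent TGF-β and anchors it to fibrillin fibres, changed less. Ltbp1 infarct zone levels lay at 66.2, 69.0 and 98.9 CPM in Sham and at 92.8, 125 and 146 CPM in MI, and its log2 fold change was 0.70 (SE 0.136, adjusted p = 0.00199). In the border and remote zones it did not pass the test, at 0.39 (SE 0.161, adjusted p = 0.0679) and 0.24 (SE 0.11, adjusted p = 0.118). Without MI replicate 2 both did, at 0.48 (adjusted p = 0.0278) and 0.30 (adjusted p = 0.0422), as they did when scaled by library size alone, at 0.58 (adjusted p = 0.0111) and 0.38 (adjusted p = 0.0223). The counts of Ltbp2 and Ltbp1 shifted against each other within the libraries. The median log2 ratio of Ltbp2 to Ltbp1 counts was -3.54 in Sham and 2.35 in MI infarct zones.

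The promoters of Ltbp1 and Ltbp2, which both rose in the infarct zone, are shown with that of Tgfbr3, the co-receptor that did not. They are RefSeq sequences of the GRCr8 assembly, 250 bases before to 50 after the annotated start, written 5′ to 3′ on the gene's strand. The deposited counts were made on mRatBN7.2. Capitals mark CAGAC, the Smad-binding motif, and its complement GTCTG, and the GC box GGGCGG with its complement CCGCCC.
Ltbp2 promoter, chr6:110257249-110257548 (minus strand): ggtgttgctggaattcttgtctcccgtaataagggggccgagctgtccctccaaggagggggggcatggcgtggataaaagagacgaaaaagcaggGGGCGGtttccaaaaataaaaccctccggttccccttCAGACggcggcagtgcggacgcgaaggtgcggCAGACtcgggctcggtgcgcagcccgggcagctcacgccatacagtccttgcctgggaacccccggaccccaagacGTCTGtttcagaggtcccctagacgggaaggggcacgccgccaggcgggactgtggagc
Ltbp1 promoter, chr6:26177252-26177551 (minus strand): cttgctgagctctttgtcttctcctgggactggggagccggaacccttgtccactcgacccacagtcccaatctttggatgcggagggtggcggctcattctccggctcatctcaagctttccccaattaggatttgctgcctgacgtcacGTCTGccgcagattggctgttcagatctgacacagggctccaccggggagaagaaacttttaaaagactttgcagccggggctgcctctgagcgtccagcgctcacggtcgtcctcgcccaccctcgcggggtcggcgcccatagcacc
Tgfbr3 promoter, chr14:2634044-2634343 (plus strand): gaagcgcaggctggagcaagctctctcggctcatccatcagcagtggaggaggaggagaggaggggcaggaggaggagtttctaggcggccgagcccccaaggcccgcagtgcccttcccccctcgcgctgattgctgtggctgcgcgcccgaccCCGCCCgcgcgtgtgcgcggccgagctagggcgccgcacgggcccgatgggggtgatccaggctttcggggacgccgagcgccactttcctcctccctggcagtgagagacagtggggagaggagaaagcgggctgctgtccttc
CAGAC was found on either strand 3 times in the Ltbp2 window and 1 time in the Ltbp1 window, and in none of the other 7 promoters. Among these 7 were those of Tgfb1, Tgfb2, Tgfb3, Tgfbr1 and Tgfbr2, which also rose in the infarct zone. At least 1 match was thus present in 2 of the 9, and in 50.1% of 33469 rat promoters of this length. At least 3 were present in 4.17% of all. GGGCGG was present in 5 of the 9 promoters and in 33.1% of all. The AP-1 motif TGANTCA was present in none of the 9 and in 7.33% of all. These matches describe letters in short windows and no binding was measured.

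Smad7, a feedback inhibitor of the receptors, was the flattest of the 9 genes. Smad7 infarct zone levels lay at 42.7, 55.3 and 66.1 CPM in Sham and at 43.5, 54.5 and 71.7 CPM in MI. Its log2 fold change was 0.02, with a 95% interval from -0.31 to 0.35. The border zone interval ran from -0.78 to 0.46, and MI animals were spread from 27.5 to 79.2 CPM. Neither these nor the remote zone (-0.38 to 0.32) passed the test, and the intervals leave room for changes of that size.

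**Figure D2:**
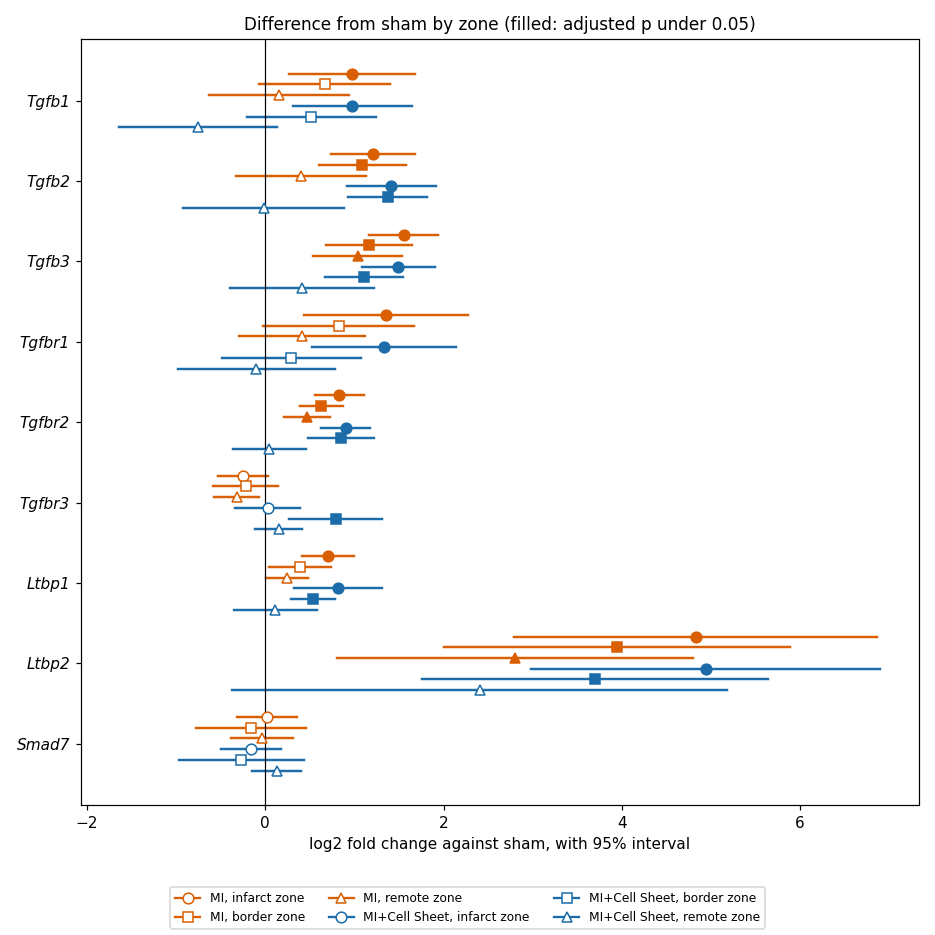
Log2 fold change against Sham of each gene in MI (orange) and MI+Cell Sheet (blue), with 95% intervals; circles, squares and triangles are the infarct, border and remote zones, and filled symbols have an adjusted p under 0.05. In both groups 7 genes are filled in the infarct zone, and Ltbp2 reaches 4.83 and 4.94 there.

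Whether the MI effect differed between zones was tested within animals. The difference between the infarct and remote effects passed the test for 5 of 9 genes (28.9% of all genes called, 13.6% higher and 15.3% lower). It was 2.00 on the log2 scale (SE 0.463, adjusted p = 0.00704) for Ltbp2, 0.90 (SE 0.233, adjusted p = 0.0121) for Tgfbr1, 0.78 (SE 0.22, adjusted p = 0.0185) for Tgfb2, 0.75 (SE 0.182, adjusted p = 0.00926) for Tgfb1 and 0.49 (SE 0.149, adjusted p = 0.0253) for Ltbp1. The call of Ltbp1 was lost in 4 of the 12 fits without 1 animal (without MI replicate 5 or Sham replicates 1, 2 or 3, adjusted p from 0.0523 to 0.0613). For Tgfb3, which rose in every zone, the difference was 0.58 (SE 0.213, adjusted p = 0.0556). Between border and remote zones no gene of the 9 passed. Over all genes 0 of 16475 passed, with 3995 at an unadjusted p under 0.05 and 1420 called by DESeq2. By DESeq2, Ltbp2 (1.14, adjusted p = 0.021) and Tgfb2 (0.62, adjusted p = 0.0222) were called.

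Zones were also compared within the hearts of each treatment, and the separate calls do not test whether treatments differ. In Sham, where no tissue was infarcted, Tgfb1 and Tgfb2 were lower in the infarct zone position than in the remote zone of all 6 animals, with log2 fold changes of -0.35 (SE 0.0771, adjusted p = 0.00263) and -0.46 (SE 0.106, adjusted p = 0.00404). Tgfb3 was higher there in all 6 (0.21, SE 0.0604, adjusted p = 0.0132). Of all genes, 32.4% were called in this comparison, 15.9% higher and 16.4% lower, and 5.80% did not overlap. Tgfb1 and Tgfb2 were also lower in the Sham border zone than in the remote zone in all 6 animals, by -0.31 (adjusted p = 0.00563) and -0.43 (adjusted p = 0.00948), with 25.7% of all genes called (12.7% higher, 13.0% lower, and 3.70% without overlap).

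In MI hearts 4 genes were higher in the infarct than in the remote zone (36.4% of all genes called, 18.3% higher and 18.1% lower), in all 6 animals each. They were Ltbp2 (1.70, SE 0.322, adjusted p = 0.00948), Tgfbr1 (0.91, SE 0.212, adjusted p = 0.0152), Tgfb3 (0.78, SE 0.198, adjusted p = 0.019) and Ltbp1 (0.57, SE 0.111, adjusted p = 0.00992). The call of Tgfb3 was lost without MI replicate 4 or 5 (adjusted p = 0.0502 and 0.0542). Between border and remote zones of MI, edgeR called none of the 9 and 0 of 15738 genes (5943 at an unadjusted p under 0.05), whereas DESeq2 called 4370 genes, of the 9 genes Ltbp2 (1.15, adjusted p = 0.00134) and Tgfbr1 (0.61, adjusted p = 0.0357).

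In MI+Cell Sheet hearts 8 genes differed between infarct and remote zones. In the infarct against the remote zone 7 genes were higher and Smad7 was lower (62.8% of all genes called, 31.5% higher and 31.4% lower), with log2 fold changes from 0.79 (SE 0.167, adjusted p = 0.00595) for Ltbp1 to 3.84 (SE 0.771, adjusted p = 0.00517) for Ltbp2. Smad7 was lower in 5 animals and level in replicate 4, at 65.4 CPM in both zones. Its levels were 34.3, 47.5 and 65.4 CPM in the infarct zone against 56.8, 67.2 and 80.7 CPM in the remote zone (log2 fold change -0.49, SE 0.115, adjusted p = 0.00869). By library size alone it was -0.28 (adjusted p = 0.0683). Without replicate 1 the log2 fold change of Ltbp2 was 4.40, and Tgfbr3 was called lower as well (-0.44, adjusted p = 0.00802). In the border against the remote zone 6 genes were higher (56.4% of all genes called, 29.2% higher and 27.2% lower). The lowest p-values among them were those of Tgfb1 with 1.00 (SE 0.121, adjusted p = 0.00294) and Tgfbr2 with 0.87 (SE 0.162, adjusted p = 0.00448), each in all 6 animals. Those of Tgfb2, Tgfb3 and Ltbp2 were kept in only 1 of 6 fits without 1 animal, the one without replicate 1, where they were 1.38, 1.58 and 3.85, and Tgfbr1 kept its call in all 6. Without replicate 1 Ltbp1 was called too (0.76, adjusted p = 0.00351). Whether the sheet changed the infarct against remote difference was not tested, and for the border against remote difference 0 of the 9 genes passed.

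The comparison of MI+Cell Sheet with MI asks what the sheet did to these genes after infarction. In the infarct zone none of the 9 genes, and 0 of the 16196 genes tested, were called by edgeR (1341 at an unadjusted p under 0.05, and 59 called by DESeq2). The intervals were narrowest for Tgfbr3, which reached 0.54 around a log2 fold change of 0.27 and just included 0, and Tgfbr2, from -0.25 to 0.34. The interval of Ltbp2 ran from -1.11 to 1.11, so that smaller changes in either direction were not excluded. Without MI+Cell Sheet replicate 2 or 6, whose infarct zones held skeletal muscle markers, 0 of the 9 genes were called as well. For the border zone 1 of 9 was called, beside 18.0% of all genes (8.47% higher, 9.48% lower). For the remote zone 2 of 9 were called, beside 17.1% of all genes (10.3% higher, 6.79% lower). On the counts of the infarct and border zones summed for each animal 1 of 9 was called, beside 12.1% of all genes (6.02% higher, 6.09% lower). None of the 9 genes separated the groups without overlap, as 0.747%, 9.72%, 4.88% and 7.50% of all genes did in the infarct, border and remote zones and the sum. Tgfbr3 was called higher in all 3 of these, and Tgfb1 was called lower in the remote zone.

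**Figure D3:**
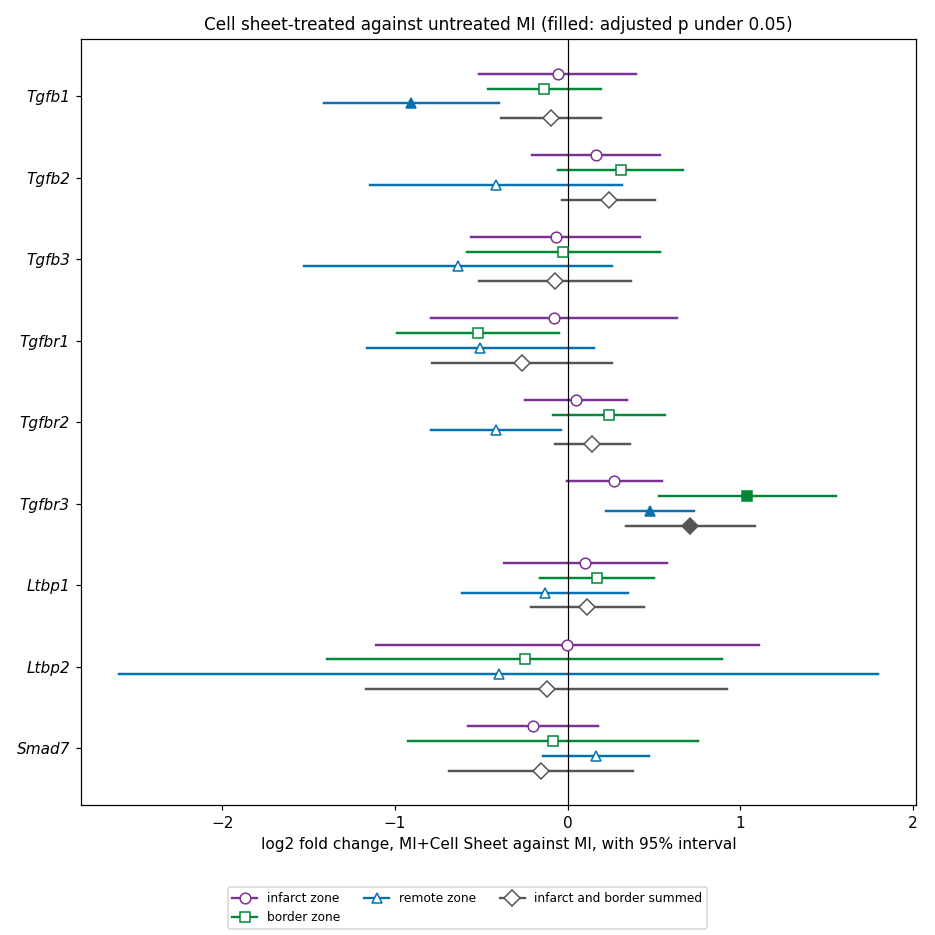
Log2 fold change of MI+Cell Sheet against MI for each gene with 95% intervals, by zone and for the infarct and border zones summed per animal; filled symbols have an adjusted p under 0.05. Tgfbr3 is filled in the border zone (1.04), the remote zone (0.47) and the sum (0.71), and Tgfb1 in the remote zone (-0.90).

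Tgfbr3 stood in the border zone at 217, 180, 93.2, 87.1, 120 and 178 CPM in MI+Cell Sheet replicates 1 to 6 and at 102, 78.8, 61.7, 65.0, 59.9 and 64.0 CPM in MI replicates 1 to 6. Of the treated animals 4 lay above every MI animal, and replicates 3 and 4 lay within the MI range. The log2 fold change was 1.04 (SE 0.236, 95% interval 0.53 to 1.55, adjusted p = 0.0104), and it was called in all 12 fits without 1 animal (0.89 to 1.16). In the remote zone Tgfbr3 lay at 82.1, 110 and 126 CPM with the sheet and 68.3, 71.5 and 95.7 CPM without it (0.47, SE 0.118, adjusted p = 0.0206). This call missed the threshold without MI replicate 5 or MI+Cell Sheet replicate 2 or 5 (adjusted p from 0.0511 to 0.0517). On the sums it was 0.71 (SE 0.173, adjusted p = 0.0218), with 87.1, 124 and 185 CPM against 70.8, 73.7 and 102 CPM, and missed the threshold without MI replicate 3 or MI+Cell Sheet replicate 6 (adjusted p = 0.0502 and 0.0501). The border effect exceeded the infarct effect by 0.74 (SE 0.206) and the remote effect by 0.53 (SE 0.289), neither of which passed the edgeR test (adjusted p = 0.215 and 0.306). DESeq2 called the first of them (0.73, adjusted p = 0.0407), and for the border against the remote effect it called Tgfb1 (0.79, adjusted p = 0.0175) and Tgfbr2 (0.65, adjusted p = 0.0293). Without MI+Cell Sheet replicate 1 edgeR called the border minus remote effect for Tgfb2 (1.20, adjusted p = 0.0418), Tgfb3 (1.29, adjusted p = 0.0361) and Ltbp2 (2.71, adjusted p = 0.048).

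Marker sums of other cells are given beside Tgfbr3 in the border zone. The 5 adipocyte markers summed to 352, 107, 0.243, 4.98, 299 and 530 CPM in MI+Cell Sheet replicates 1 to 6 and to at most 27.1 CPM in MI. Replicates 3 and 4, which had little of them, also had the lowest Tgfbr3 of their group. In the remote zone the adipocyte sums were at most 4.54 CPM with the sheet and 12.3 CPM without it, and Tgfbr3 was higher there too. The 5 mural cell markers summed to 790 to 936 CPM in treated and 331 to 478 CPM in untreated border zones, and to 800 to 1025 CPM and 423 to 576 CPM in remote zones. Neither pair of groups overlapped. Within the treated border zones the mural sums were 839, 934, 936, 790, 891 and 900 CPM in replicates 1 to 6, an order unlike that of Tgfbr3. In infarct zones, where Tgfbr3 was not called, the median mural sum was 677 CPM with the sheet and 460 CPM without it. Mesothelial markers summed to 670, 458, 46.6, 245, 259 and 567 CPM in the treated border zones of replicates 1 to 6 and to at most 504 CPM in MI, in replicate 1, which also had the highest Tgfbr3 of MI. Macrophage sums were likewise lowest in treated replicates 3 and 4, at 326 and 449 CPM, and highest in treated replicate 1, at 1378 CPM. Cardiomyocyte markers summed to 81.2, 12116, 12546, 11632, 11290 and 4898 CPM in treated border zones of replicates 1 to 6. In MI border zones they summed to 1952 to 12278 CPM. The treated border piece with the highest Tgfbr3, replicate 1, thus had the lowest cardiomyocyte sum. Endothelial markers summed to 1251, 1102, 913, 1050, 1003 and 1055 CPM in treated border zones of replicates 1 to 6. In MI border zones they summed to 720 to 968 CPM. In remote zones the endothelial sums were 837 to 1191 CPM with the sheet and 920 to 1477 CPM without it. The part of these cell types in the Tgfbr3 difference was not tested.

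**Figure D4:**
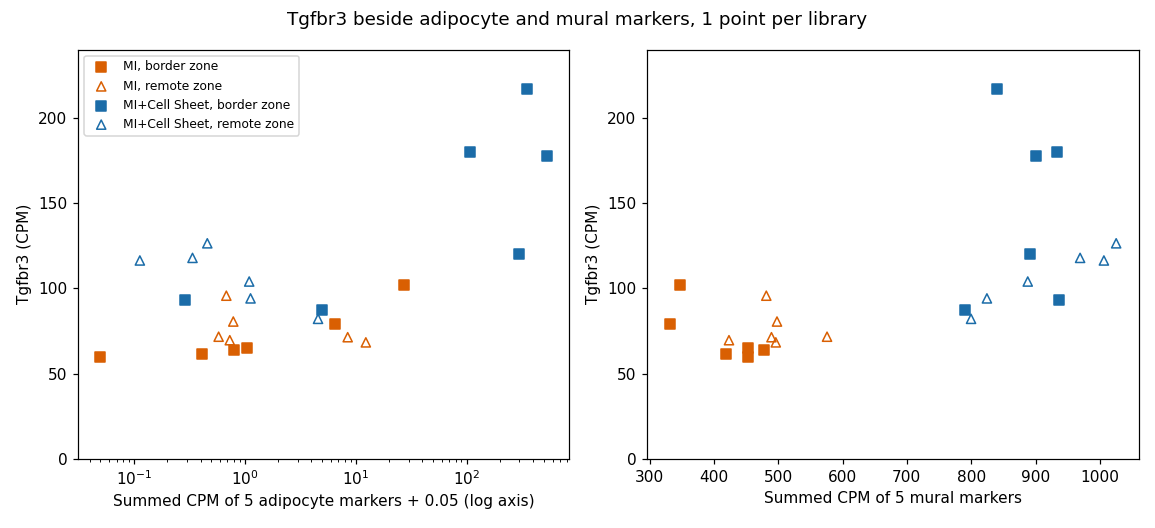
Tgfbr3 in CPM against the summed CPM of 5 adipocyte markers (left, log axis, 0.05 added) and 5 mural cell markers (right) in border zones (filled squares) and remote zones (open triangles) of MI (orange) and MI+Cell Sheet (blue); points are libraries. The 4 treated border zones with 120 CPM of Tgfbr3 or more have adipocyte sums of 107 CPM or more, and all treated libraries lie to the right of all MI libraries for the mural markers.

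Tgfb1 was lower in the remote zone of treated hearts, at 26.9, 29.6 and 64.2 CPM against 50.5, 64.5 and 88.9 CPM in MI. The group ranges overlapped through MI+Cell Sheet replicate 1 alone, as the other 5 treated animals did not exceed 43.2 CPM. The log2 fold change was -0.90 (SE 0.235, adjusted p = 0.0238), and -1.14 (adjusted p = 0.000436) without that animal. It missed the threshold in 5 of the 12 fits without 1 animal (without MI replicate 4 or 5 or MI+Cell Sheet replicate 2, 3 or 5, adjusted p from 0.0539 to 0.0597).

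The remote zone of MI+Cell Sheet replicate 1 was also the highest of its group in Tgfb2 (82.5 CPM), Tgfb3 (246 CPM), Tgfbr1 (143 CPM), Tgfbr2 (417 CPM), Ltbp1 (134 CPM) and Ltbp2 (708 CPM). With all animals the treated remote zones did not pass the test against MI for these genes. Without it, 7 of the 9 genes were called. Tgfb1, Tgfb2 (-0.79, adjusted p = 0.0263), Tgfb3 (-1.19, adjusted p = 0.00469), Tgfbr1 (-0.93, adjusted p = 0.00111), Tgfbr2 (-0.58, adjusted p = 0.0029) and Ltbp2 (-2.50, adjusted p = 0.0172) were then lower with the sheet and Tgfbr3 was higher. All genes called in that fit numbered 6450, against 2623 with every animal. In the other 5 treated animals Ltbp2 lay at 6.71 to 104 CPM in the remote zone, beside 38.3 to 411 CPM in MI. Markers of other cells were lower in the same 5 libraries. Myofibroblast markers summed to 44.5 to 399 CPM in them and to 231 to 1920 CPM in MI. Macrophage markers summed to 127 to 233 CPM and to 237 to 549 CPM, without overlap, and fibroblast markers to 1035 to 1509 CPM and to 1393 to 3289 CPM. Cardiomyocyte markers were higher, at 19776 to 35632 CPM and 13446 to 22441 CPM, with overlap. The part of these cells in the lower Tgfb1 and in the other values was not tested. Leaving out MI replicate 1 added Tgfbr1 to the border zone calls, at -0.64 (adjusted p = 0.0401) against -0.52 (adjusted p = 0.118) with all animals.

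Treated hearts were also set against Sham. These comparisons share the Sham libraries with those of MI and are not independent of them. In the infarct zone 7 genes were higher (57.9% of all genes called, 28.6% higher and 29.2% lower), with log2 fold changes of 0.97 for Tgfb1, 1.42 for Tgfb2, 1.49 for Tgfb3, 1.33 for Tgfbr1, 0.90 for Tgfbr2, 0.82 for Ltbp1 and 4.94 for Ltbp2. In MI the same genes stood at 0.98, 1.21, 1.55, 1.35, 0.83, 0.70 and 4.83. Without Sham replicate 5 the value of Ltbp2 was 6.54. Tgfb2, Tgfb3, Tgfbr2 and Ltbp2 did not overlap with Sham, as held for 20.9% of all genes. The call of Tgfb1 was lost without MI+Cell Sheet replicate 3 (0.82, adjusted p = 0.0685).

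In the border zone 6 genes were higher (43.6% of all genes called, 20.4% higher and 23.2% lower). Tgfbr3 was one of them, at 87.1, 149 and 217 CPM against 56.0, 84.4 and 103 CPM in Sham (0.79, SE 0.241, adjusted p = 0.0195). Without Sham replicate 5 and MI+Cell Sheet replicate 1 it was 0.55 (adjusted p = 0.0372). Tgfb2 (1.37, SE 0.204, adjusted p = 0.000287), Tgfb3 (1.11, SE 0.201, adjusted p = 0.00104), Tgfbr2 (0.85, SE 0.171, adjusted p = 0.00204) and Ltbp1 (0.54, SE 0.113, adjusted p = 0.00266) did not overlap with Sham, as held for 19.6% of all genes. Ltbp2 was higher by 3.70 (SE 0.893, adjusted p = 0.0058), and by 5.35 without Sham replicate 5. Tgfb1 (0.52, adjusted p = 0.224) and Tgfbr1 (0.29, adjusted p = 0.524) passed only without Sham replicate 5, at 1.02 (adjusted p = 7.91e-05) and 0.85 (adjusted p = 0.000383).

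In the remote zone none of the 9 genes differed from Sham by the test, in a comparison where 1 of 15157 genes was called (0.00660%) by edgeR, 1520 had an unadjusted p under 0.05, 180 were called by DESeq2 and 1.29% did not overlap. Without Sham replicate 5 and MI+Cell Sheet replicate 1, again none of the 9 passed, among 128 genes called. The log2 fold changes were then from -0.40 for Tgfb1 to 0.13 for Tgfbr3, apart from Ltbp2 at 2.16 (adjusted p = 0.136). With all animals the interval of Ltbp2 ran from -0.37 to 5.18. Its value was 0.29 without MI+Cell Sheet replicate 1 and 4.28 without Sham replicate 5, neither of which passed.

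Further genes of the pathway were taken from 5 lists with 45 genes. In MI against Sham infarct zones 30 of the 45 rose and 3 fell, beside 22.7% of all genes higher and 27.2% lower. Of 15 reported TGF-β targets 14 rose and Cdkn1a, a cell cycle inhibitor, fell (-0.43, adjusted p = 0.0179). Postn, the matrix protein periostin, lay at 22.8 to 330 CPM in Sham and 776 to 2465 CPM in MI (4.46, SE 0.779, adjusted p = 0.00119). Cdkn2b, another cell cycle inhibitor, lay at 0 to 2.12 CPM in Sham and 3.29 to 16.9 CPM in MI (4.32, SE 0.771, adjusted p = 0.00133). The targets had a median log2 fold change of 3.10 beside -0.02 over all genes.

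Of 10 genes of latency and activation 6 rose and 1 fell, Itgb8 (-0.54, adjusted p = 0.014), a subunit of an integrin that activates latent ligand. Thbs1, thrombospondin 1, which can activate latent TGF-β, rose by 3.54 (SE 0.564, adjusted p = 0.000702), and Fbn1, the fibrillin to which the latent complex is anchored, by 2.09 (SE 0.258, adjusted p = 0.000151). Of 4 extracellular ligand binders 3 rose, with Bgn, biglycan, at 3.07 (SE 0.382, adjusted p = 0.00016) and Aspn, asporin, at 2.05 (SE 0.294, adjusted p = 0.000387). Of 5 other receptors and co-receptors 2 rose, Cd109 by 1.86 (SE 0.332, adjusted p = 0.00131) and Acvrl1 by 0.51 (SE 0.112, adjusted p = 0.00359). Of 11 Smads and their regulators 5 rose and Zfyve9, an adaptor that brings Smads to the receptor, fell (-0.72, adjusted p = 0.0139). Pmepa1, which like Smad7 restrains the pathway, rose by 1.86 (SE 0.183, adjusted p = 4.77e-05) and the co-repressor Tgif1 by 1.53 (SE 0.33, adjusted p = 0.00337).

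With the sheet, 3 of 45 rose over untreated MI on the summed zones and none fell, a share near that of all genes, of which 6.02% were higher and 6.09% lower. The 3 were Lrrc32 (0.64, SE 0.126, adjusted p = 0.00938), whose protein holds latent TGF-β on the cell surface, Fmod (1.09, SE 0.27, adjusted p = 0.0237), the ligand-binding proteoglycan fibromodulin, and Fn1 (0.76, SE 0.214, adjusted p = 0.0385), fibronectin. Of the 15 targets only Fn1 passed. In the border zone Lrrc32, Ltbp3, Furin and Smad3 rose (0.78, 0.36, 0.35 and 0.29), in the remote zone Dcn and Bmpr2 fell (-0.60 and -0.40), and in the infarct zone 0 of 45 passed. Of all genes 8.47% were higher in the border zone, 6.79% were lower in the remote zone and 0 were called in the infarct zone.

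Across the 54 libraries, which share treatment, zone and animal, 3 pairs of genes had the highest r. Pearson's r of log2 CPM was 0.92 between Tgfb2 and Ltbp2, 0.91 between Tgfb1 and Tgfbr1 and 0.89 between Tgfb3 and Ltbp1. After the group means were taken out these were 0.87, 0.90 and 0.82. Tgfb1 and Tgfb3, by contrast, were at 0.59 over all libraries and at 0.15 within groups. Tgfbr3 had a negative r with each of the other 8 genes, both over all libraries and within groups, the lowest of them within groups with Ltbp2 (-0.68). With Tgfbr2 and Ltbp1 its r was hardly negative, at -0.03 and -0.09 over all libraries and -0.06 and -0.09 within groups. These values are a description, and Sham replicate 5 and MI+Cell Sheet replicate 1 lie in them.

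**Figure D5:**
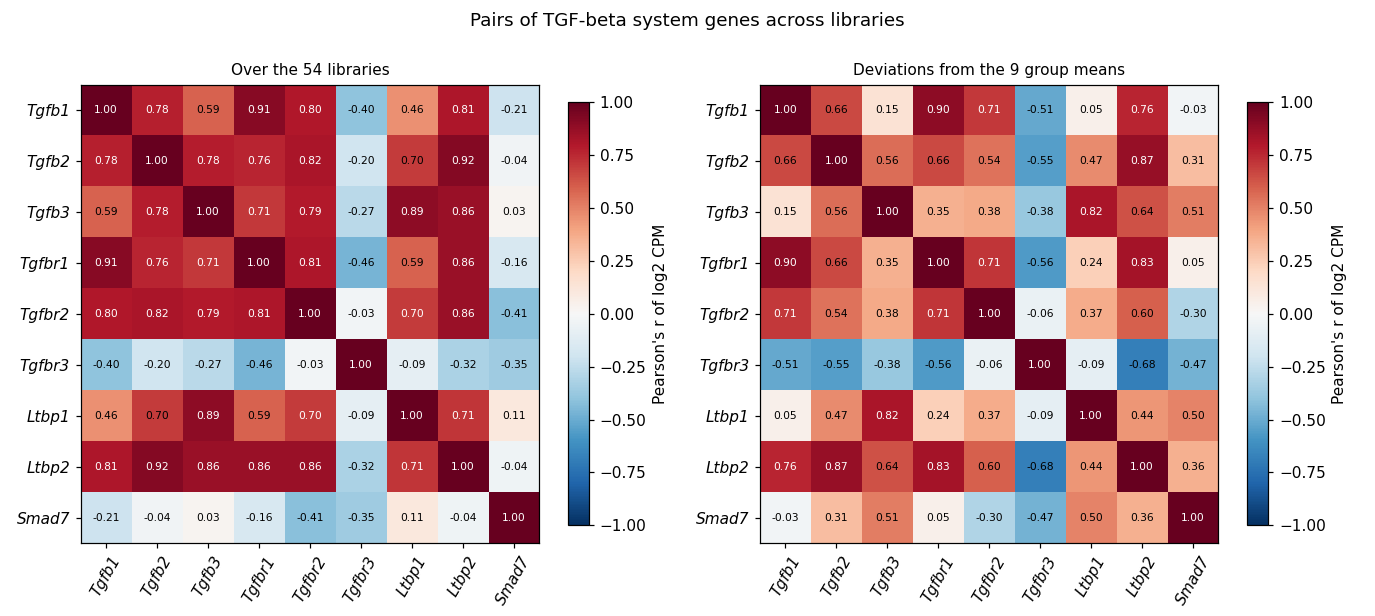
Pearson's r of log2 CPM for each pair of the 9 genes over 54 libraries (left) and for their deviations from the 9 group means (right); red is positive and blue negative. Tgfbr3 has a negative r with all other genes in both panels, from -0.03 with Tgfbr2 (left) to -0.68 with Ltbp2 (right). Tgfb1 with Tgfbr1 stays at 0.90 within groups.

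Among 17743 genes, those nearest to each of the 9 over the 54 libraries were also named. Kctd12 (r = 0.96) and the actin gene Actb (0.95) were nearest to Tgfb1, Cilp (0.92) to Tgfb2, Adamts2 (0.95), a procollagen-processing protease, to Tgfb3, Sh2d1b (0.97) to Tgfbr1 and Slc44a1 (0.97) to Tgfbr2. Abi3bp (0.93) was nearest to Ltbp1, and Thbs1 (0.97) and Bgn (0.97) to Ltbp2. The nearest genes of Tgfbr3 and Smad7 were less close, with 0.82 for Galnt15 and 0.80 for the insulin receptor substrate Irs1, and with 0.84 for Pdlim3.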

How the data were processed

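RNA of 54 libraries (18 animals, 3 zones) was sequenced by the authors, who aligned reads to the rat genome and deposited raw counts per gene. Which program counted the reads, and whether by strand, is not given in the sources used here. Libraries held 12699204 to 23397754 counts on genes. The 5 summary lines that name no gene (17.0% to 42.8% of a library) were left out. In remote zones their share was 23.4% to 31.9% in MI+Cell Sheet, 29.2% to 40.3% in MI and 27.4% to 40.3% in Sham. The part of this difference in the remote zone comparisons was not tested.

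Counts were tested with edgeR 4.0.16 (quasi-likelihood F test, TMM, filterByExpr with a minimum count of 10) in R 4.3.3, with limma 3.58.1. Only the libraries of the groups compared entered each fit, and animal was a block between zones of a heart. p-values were adjusted by Benjamini-Hochberg over all genes tested, with a threshold of 0.05, and intervals are 95%. SE is the log2 fold change divided by the root of F. Alternatives were DESeq2 1.42.0, other scaling, filters, blocks, a joint fit and leaving out each animal. Scripts were tested on simulated data.

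The 9 genes, the pathway lists and the marker lists were chosen with earlier results of these data known. Named pathway genes were those 2 per list with the largest change among called genes in MI against Sham infarct zones, and the 3 genes called in the summed comparison. Genes that fell, and genes called with the sheet in single zones, were named after their values were seen. Nearest genes are the 3 with the highest Pearson's r, of which 1 or 2 are printed. Replicate numbers did not pair animals across treatments (1 or 2 of 6 same-numbered pairs had a correlation over 0.1). Zones were paired because they come from the same heart, though their correlations were not always higher. For the infarct and border against the remote zone, 6 and 6 of 6 pairs were over 0.1 in Sham. The counts were 4 and 2 of 6 in MI, and 3 and 4 of 6 in MI+Cell Sheet.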

Additional observations from a re-analysis of the deposited data

Results flagged for a closer look

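The 9 genes in the 9 groups of 6 libraries gave 81 sets of values. In 14 of them the gap from the lowest or highest level to the nearest other exceeded Dixon's 95% critical share of the range. Gaps were taken on the log2 scale. Chance alone puts about 1 in 20 independent sets past it, and these sets are not independent, as the genes share libraries. Of the 14, 10 were Sham replicate 5. Its Tgfb1 was the highest of its group at 104 CPM in the infarct, 122 CPM in the border and 163 CPM in the remote zone. Its Tgfbr1 stood at 178, 211 and 160.3 CPM in the same order, and its Ltbp2 at 88.3 CPM in the infarct and 110.03 CPM in the border zone. Its Tgfbr3 was the lowest, at 55.0 CPM in the infarct and 66.4 CPM in the remote zone. MI replicate 1 was the lowest of its group for Tgfb3 in the infarct zone (132 CPM) and for Ltbp2 in the infarct (78.7 CPM) and border zones (63.7 CPM). Tgfbr1 in the remote zone of MI+Cell Sheet replicate 1 was the highest of its group, at 143 CPM.

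The effect of MI against Sham was larger in the infarct than in the remote zone, by the edgeR test of the difference itself, for Tgfb1 (0.75 on the log2 scale), Tgfb2 (0.78), Tgfbr1 (0.90), Ltbp1 (0.49) and Ltbp2 (2.00). For Tgfb1 and Tgfb2, Sham hearts were themselves lower at the infarct position than in the remote zone. Within MI hearts neither of these ligands was called between the infarct and remote zones.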

How the results depend on the processing

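The 59 called log2 fold changes of the 9 genes gave 909 values under alternatives, of which 841 were still called and 0 turned in sign. With a replicate block, 0 genes of the 9 were called for MI+Cell Sheet against MI in the remote zone. There Tgfb1 had an adjusted p of 0.0555 and Tgfbr3 of 0.0563. The block also ended the call of Tgfbr3 against Sham in the border zone (adjusted p = 0.0502), added Tgfbr3 for MI against Sham in the remote zone (-0.32, adjusted p = 0.0387) and changed no other call of a member between treatments. Without the animal as a replicate block, the counts were 0 and 0 for the infarct and border against the remote zone in Sham, 2 for the infarct zone in MI, 3 for the border zone in MI+Cell Sheet and 0 for the infarct minus remote MI effect. DESeq2 called 2 for border against remote in MI, 2 for the border minus remote MI effect, and 1 and 2 for the sheet effect in the border minus the infarct and the remote zone.

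When 1 animal was left out, the number of the 9 genes called ran from 2 to 7 for MI against Sham in the remote zone. For MI+Cell Sheet against MI it ran from 1 to 2 in the border zone, from 0 to 7 in the remote zone and from 0 to 1 on the sums. It ran from 3 to 7 for border against remote in MI+Cell Sheet, from 0 to 1 for the border minus remote MI effect and from 0 to 3 for that of the sheet. The causes were not tested.

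Over all genes, the replicate block took the calls from 6517 to 4193 for MI against Sham in the border zone. For MI+Cell Sheet against MI it took them from 2922 to 1214 in the border zone, 2623 to 2 in the remote zone and 2179 to 477 on the sums, and against Sham in the remote zone from 1 to 0. The sums gave 1378 calls with no filter, and 3428 by DESeq2 with 24 separate libraries. A joint fit of 9 groups gave 6 for MI+Cell Sheet against MI in the infarct zone and 183 against Sham in the remote zone. Without the animal block, zones gave 1081 and 307 calls in Sham (4878 and 3880 with it) and 3409 for border against remote in MI (0 with it). The infarct minus remote MI effect then gave 1431 (4748 with it), and the sheet effects 80 and 6 (0 with it). DESeq2 gave 353 and 1081 for the latter. Leaving out 1 animal gave 2744 to 7177 calls for MI against Sham in the remote zone. For MI+Cell Sheet against MI it gave 1941 to 3083 in the border zone, 1096 to 6450 in the remote zone and 1223 to 2403 on the sums, and against Sham in the remote zone 0 to 17. It gave 2437 to 3838 for border against remote in Sham, 3236 to 5928 for infarct against remote in MI, and 0 to 1539 and 0 to 216 for the border minus remote effects of MI and of the sheet.

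Scaling by library size raised the share of calls that were higher from 44.2% to 64.1% and from 45.1% to 68.6% for MI against Sham in the border and remote zones. It moved that share from 47.2% to 57.3% and from 60.2% to 48.5% for MI+Cell Sheet against MI in the same zones, and from 49.5% to 66.3% and 46.8% to 71.2% for MI+Cell Sheet against Sham in the infarct and border zones. Leaving out Sham replicate 5 together with MI+Cell Sheet replicate 1 was chosen after seeing the data.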
